A study of Rattus norvegicus with 12 samples.

Results

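The comparison asked how taurine, given to dams on a low protein diet, changed gene expression in the hind leg skeletal muscle of their newborns. The low protein plus taurine group had 4 arrays and the low protein group had 4, so 8 of the 12 arrays of the series entered the contrast, with all 18957 detected probe sets as members. The other 4 arrays, from dams on a control diet, were used for the shared estimate of the spread and are given beside some values. Low protein plus taurine dams ate the food low in protein and drank water with 2% w/v taurine, low protein dams ate that food without added taurine, and control dams ate the control diet. All were pregnant Wistar rats, and the diets began on day 1 of gestation. Each array held RNA pooled from the muscle of 3 newborn males of 1 dam, so the dam was the replicate, differences among pups of a litter were not measured, and females were not studied. Values are log2 levels per probe set, and a difference of 1 is a doubling. The mean level of 10 defining genes of skeletal muscle lay between 11.64 and 11.81 on the 8 arrays. One of them, the skeletal actin gene Acta1, ranged from 13.63 to 13.73 with taurine and from 13.64 to 13.69 without it. Not every gene of this list was as high, such as the factor gene Myod1, whose values are given below.

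Taurine is a free sulphur-containing amino acid derivative that is abundant in skeletal muscle, where it is known for roles in cell volume, calcium handling and mitochondrial function. Muscle cells take most of it up from blood through the sodium-dependent transporter encoded by Slc6a6, and the fetus depends largely on maternal supply. It is made from cysteine by the enzymes of the genes Cdo1 and Csad. In cultured cells the transporter is known to become less abundant when taurine is plentiful.

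Across the whole array, 0 of 18957 probe sets (0%) had a limma adjusted p under 0.05, and the smallest adjusted p was 0.347. The largest differences were 1.24 (Atf3) and -1.46 (Adipoq) on the log2 scale. A difference over 0.5 was seen for 56 probe sets and one under -0.5 for 69, while the median standard error was 0.0755. At an unadjusted p under 0.05 there were 2047 probe sets (10.8%), of which 1002 were higher (5.29%) and 1045 lower (5.51%). The arrays of the 2 groups did not overlap for 1302 probe sets (6.87%), of which 636 were higher (3.35%) and 666 lower (3.51%). Among 11212 genes, each represented by its brightest probe set, 500 were higher (4.46%) and 706 lower (6.3%) at that unadjusted p, and 275 were higher (2.45%) and 443 lower (3.95%) without overlap. After centring each array on its median the gene counts were 717 higher (6.39%) and 505 lower (4.5%), so this split changed with the scaling. Control arrays 3 and 4 stood apart, with a mean level of the 15 hepatocyte markers of 10.53 and 11.49, against 6.74 and 6.998 on control arrays 1 and 2, and they entered the shared estimate of the spread. In a limma fit of only the 8 arrays compared, 1 unnamed probe set passed, at 0.60 with adjusted p = 0.0154, and 5.06% of genes were higher and 6.28% lower at an unadjusted p under 0.05. In that fit 12 of 16 adipocyte markers and 10 of 32 genes of fatty acid uptake and oxidation were lower and 20 of 28 immediate early genes were higher. Of 32 list counts of 1 to 4 members, 13 were 0 without some 1 of the 8 arrays. Since no probe set passed with all 12 arrays, the genes below are described by their values, and counts of list members at an unadjusted p under 0.05 are to be read against these shares. The lists were written with earlier results of these data known, so their counts are a description.

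**Figure D1:**
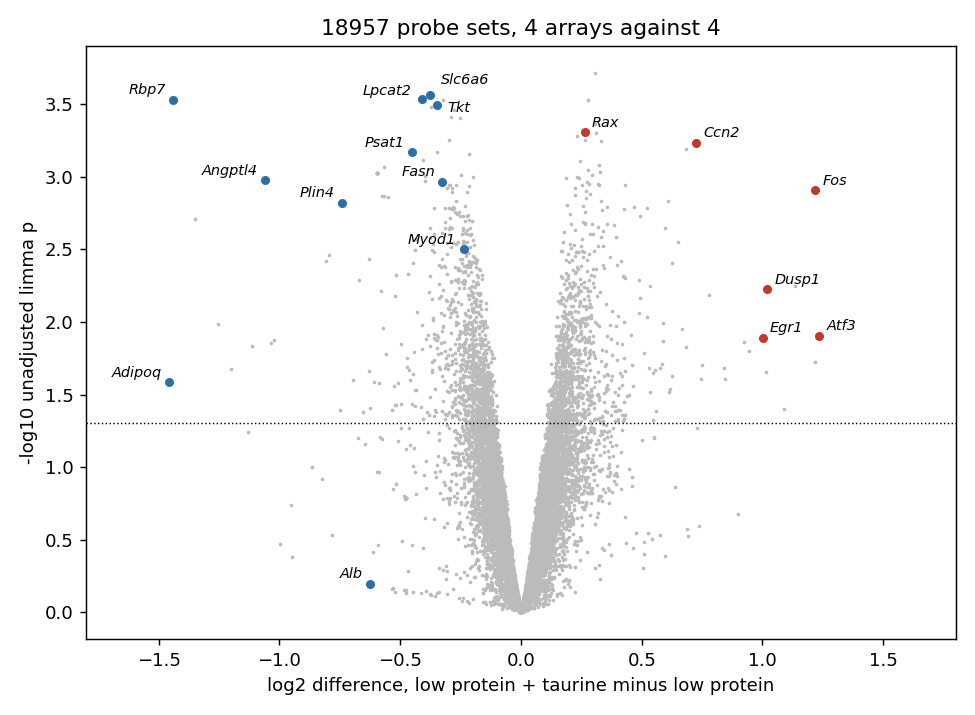
Each point is 1 of 18957 probe sets; the x axis is the log2 difference, low protein plus taurine minus low protein, and the y axis is -log10 of the unadjusted limma p, with a dotted line at 0.05. Rbp7, Angptl4 and Plin4 lie far to the left and Fos, Ccn2 and Dusp1 far to the right, and no probe set passed an adjusted p of 0.05.

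Among the genes of taurine transport and synthesis, the transporter gene Slc6a6 (probe set 10857314) had the smallest p. Its level was 8.15, 8.24, 8.39 and 8.35 in low protein plus taurine arrays 1 to 4, against 8.55, 8.62, 8.78 and 8.68 in low protein arrays 1 to 4. Every array of the taurine group lay below every array of the low protein group, and the control arrays were at 8.18, 8.09, 8.23 and 8.37, so that taurine arrays 1, 2 and 4 lay within the control range and array 3 just above it. The difference was -0.38 (SE 0.08, limma adjusted p = 0.347). For this gene alone an exact two-sided permutation test over the 70 splits gave p = 0.0286, the smallest that 4 against 4 allows. That value follows from the lack of overlap, which 6.87% of all probe sets share.

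A second transporter gene, Slc6a13, which encodes a carrier of GABA and taurine, was at 7.995, 8.21, 8.84 and 8.80 in low protein plus taurine, against 8.82, 8.81, 8.92 and 8.73 in low protein (difference -0.36, SE 0.28, limma adjusted p = 0.643). Taurine arrays 1 and 2 were low and arrays 3 and 4 lay at the level of the low protein arrays. The synthesis genes showed no such separation: Cdo1, for cysteine dioxygenase, differed by -0.17 (SE 0.15) and Csad, for cysteine sulphinate decarboxylase, by -0.02 (SE 0.11), both with overlapping arrays. Gadl1, for a related decarboxylase, was at -0.08, Fmo1, whose product oxidises hypotaurine to taurine, at -0.12, and Slc36a1, for a lysosomal amino acid transporter, at -0.04. Mpst, for an enzyme of cysteine breakdown, was at 9.87, 10.01, 8.94 and 9.18 in low protein plus taurine, against 9.06, 9.18, 9.27 and 9.02 in low protein. It was high on taurine arrays 1 and 2 only. Of the 19 measured genes of this list 0 were higher and 1 was lower at an unadjusted p under 0.05, and the median difference was -0.02, against -0.0073 over all genes. In the list of osmolyte and osmotic response genes, 1 of 15 was higher and 0 lower. That gene was Aqp4, for the water channel aquaporin 4, at 6.34, 6.40, 6.07 and 6.09 in low protein plus taurine, against 5.86, 5.92, 5.89 and 5.93 in low protein, with no overlap (difference 0.32, SE 0.07, limma adjusted p = 0.347). The aldose reductase gene Akr1b1, whose product makes the osmolyte sorbitol, differed by 0.15 (SE 0.08) and the kinase gene Sgk1 by 0.23 (SE 0.12).

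Tkt and Psat1 were among the lower genes with the smallest p. Tkt encodes transketolase of the pentose phosphate pathway and was at 9.05, 8.998, 9.22 and 9.12 in low protein plus taurine, against 9.50, 9.37, 9.41 and 9.48 in low protein. All 4 taurine arrays were below all 4 low protein arrays (difference -0.35, SE 0.07, limma adjusted p = 0.347). Psat1, for phosphoserine aminotransferase of serine synthesis, was at 8.65, 8.41, 8.77 and 8.77 in low protein plus taurine, against 9.13, 9.04, 9.15 and 9.09 in low protein. These groups did not overlap either (difference -0.45, SE 0.10, limma adjusted p = 0.347), but a second, dimmer probe set of Psat1 differed by only -0.07 (SE 0.11). Phgdh, for the first enzyme of that pathway, differed by -0.26 (SE 0.09), and Asns, for asparagine synthetase, by -0.40. Over all genes 6.3% were lower and 4.46% higher at an unadjusted p under 0.05. Of the 18 measured genes of the amino acid response and transporter list, 3 were lower (Psat1, Phgdh and Asns) and 1 was higher at that p. The higher one was Slc7a1, for a cationic amino acid transporter, at 0.31 (SE 0.10).

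Other genes with the smallest p among the lower ones were Lpcat2, for an acyltransferase of phospholipid remodelling, at -0.41 (SE 0.08), Rab34, for a small GTPase, at -0.28 (SE 0.06), the homeodomain factor gene Pbx2 at -0.25 (SE 0.05) and Flvcr2, for a membrane transporter, at -0.30 (SE 0.07). The synaptic organiser gene Cbln2 was at -0.40, the kinase gene Cdkl3 at -0.25, the nuclear pore gene Nup37 at -0.20 and 4732471J01Rik at -0.32. The arrays of the groups did not overlap for any of these 8 genes, and came closest for Cbln2, at 8.01 on both taurine array 3 and low protein array 3. Among the higher genes with the smallest p, many are at low levels on this array. Rax, for a homeobox factor of the developing eye, was at 6.85, 6.87, 6.96 and 6.99 in low protein plus taurine, against 6.73, 6.61, 6.65 and 6.63 in low protein (difference 0.26, SE 0.06, limma adjusted p = 0.347). Esm1, for a proteoglycan secreted by endothelial cells, differed by 0.31 (SE 0.07), and Pde8b, for a cAMP phosphodiesterase, by 0.33 (SE 0.08). Rbpjl, a gene of exocrine pancreas, was at 0.24, Ptprn, for a protein of secretory granules, at 0.19, the claudin gene Cldn22 at 0.27, the orphan receptor gene Gpr45 at 0.32, the linker histone gene H1f7 at 0.28 and the gut hormone gene Gip at 0.22. For all of these higher genes the lowest taurine array lay above the highest low protein array.

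**Figure D2:**
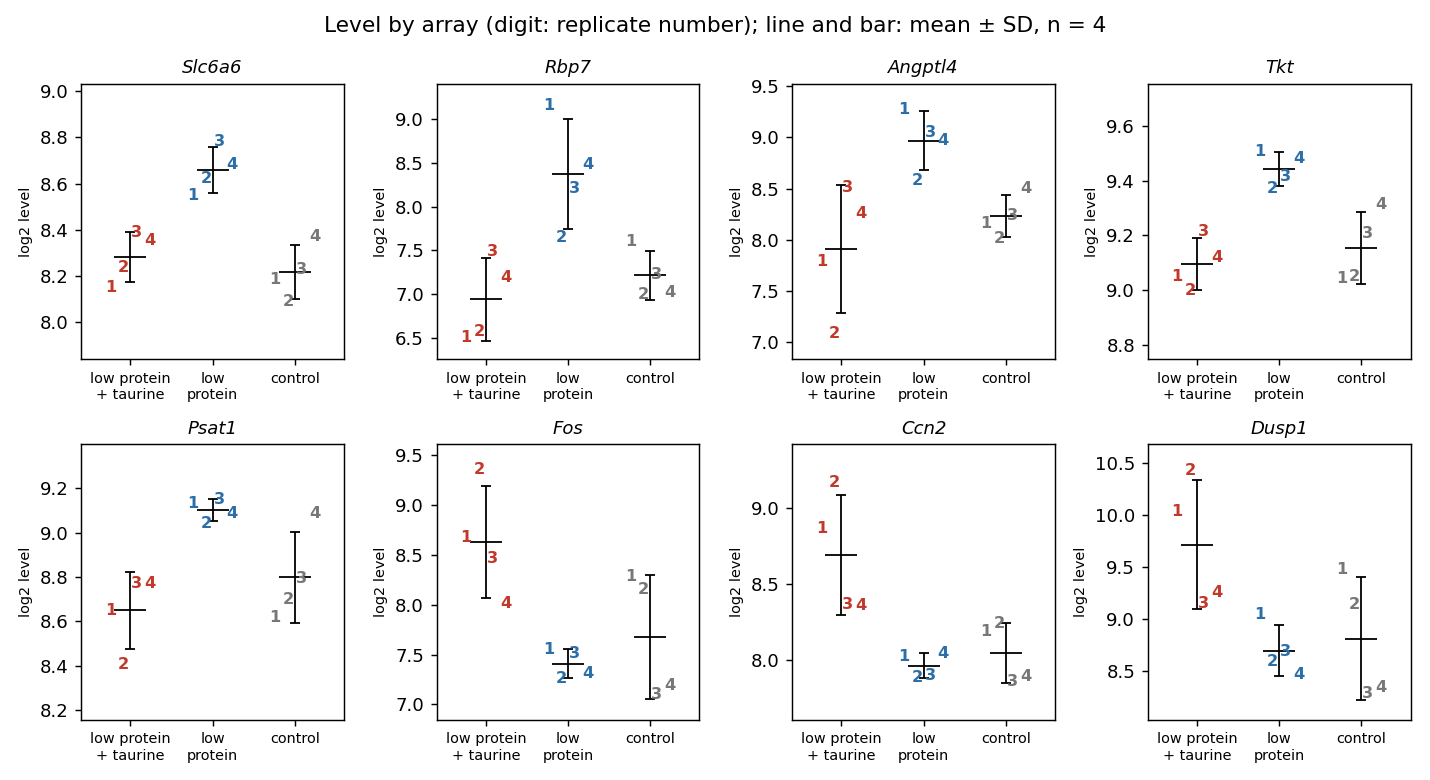
The log2 level (y axis) of 8 genes on each array, with digits for the replicate number and the mean ± SD of 4 arrays, for low protein plus taurine, low protein and control. Slc6a6, Rbp7, Angptl4, Tkt and Psat1 lie lower in the taurine group than in the low protein group without overlap. Fos, Ccn2 and Dusp1 lie higher without overlap, with taurine arrays 1 and 2 on top for each of them.

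Markers of fat cells, on a list written with earlier results of these data known, lay lower with taurine. Of 16 measured adipocyte markers, 11 were lower and 0 higher at an unadjusted p under 0.05, against 6.3% and 4.46% of all genes, 6 were lower without overlap, and 16 of 16 had a difference below 0. The median difference was -0.67. In a bulk sample, fewer cells of a type and less RNA per cell cannot be told apart. Rbp7, for a retinol-binding protein of fat and endothelium, was at 6.50, 6.57, 7.48 and 7.19 in low protein plus taurine, against 9.16, 7.64, 8.21 and 8.49 in low protein. The lowest low protein array lay just above the highest taurine array (difference -1.44, SE 0.29, limma adjusted p = 0.347). The lipid droplet gene Plin4 was at 7.06, 7.25, 7.20 and 7.05 in low protein plus taurine, against 8.58, 7.37, 7.70 and 7.89 in low protein. The low protein values spread widely and low protein array 1 was highest (difference -0.74, SE 0.18, limma adjusted p = 0.347). Fasn, for fatty acid synthase, was at 8.40, 8.24, 8.61 and 8.61 in low protein plus taurine, against 8.86, 8.75, 8.81 and 8.75 in low protein. Here both groups were tight and did not overlap (difference -0.33, SE 0.08, limma adjusted p = 0.347). Of the hormones made by fat cells, Retn (resistin) differed by -0.81 without overlap and Adipoq (adiponectin) by -1.46 with overlap. Further markers were Plin1 at -1.04, Cidec, for a droplet fusion protein, at -1.20, the fatty acid binding protein gene Fabp4 at -0.63, the lipase gene Lipe at -0.50, the nuclear receptor gene Pparg at -0.70 and the glycerol channel gene Aqp7 at -1.11. The markers Cidea at -0.27, Pnpla2 at -0.13, Cfd at -0.08, Dgat2 at -0.65 and Scd at -0.26 had an unadjusted p above 0.05.

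The mean level of the 16 adipocyte markers was 7.92, 8.002, 7.99 and 7.81 on taurine arrays 1 to 4, against 9.33, 8.13, 8.48 and 8.60 on low protein arrays 1 to 4. It was 8.36, 8.04, 7.97 and 8.06 on the control arrays, so the low protein arrays held the widest range and low protein array 1 stood highest. Without low protein array 1, 8 of 16 markers were lower at an unadjusted p under 0.05, against 6.66% of all genes under that choice, and the median was -0.45. Without taurine arrays 1 and 2, 9 of 16 were lower, against 2.58% of all genes under that choice, and the median was -0.69. After cyclic loess 11 of 16 were lower, against 5.52% of all genes, with a median of -0.65.

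Genes of fatty acid uptake and oxidation also lay lower. Of 32 measured genes, 8 were lower and 0 higher at an unadjusted p under 0.05, against 6.3% and 4.46% of all genes. Without overlap 6 were lower, against 3.95% of all genes, and the median was -0.16. Angptl4, whose secreted product inhibits lipoprotein lipase, was at 7.79, 7.09, 8.51 and 8.26 in low protein plus taurine, against 9.28, 8.58, 9.05 and 8.97 in low protein. The groups did not overlap, and taurine arrays 1 and 2 were below arrays 3 and 4 (difference -1.06, SE 0.25, limma adjusted p = 0.347). Cd36, for a fatty acid uptake receptor, differed by -0.28 (SE 0.08), with a second probe set at -0.34, and Acsl1, for an acyl-CoA synthetase, by -0.53. The uncoupling protein genes Ucp3 and Ucp2 differed by -0.43 (SE 0.14) and -0.50. Among mitochondrial steps, Cpt1b, for the muscle carnitine palmitoyltransferase, differed by -0.20, the isomerase gene Eci2 by -0.41 and Mlycd, for malonyl-CoA decarboxylase, by -0.44. Without taurine arrays 1 and 2, 2 of 32 were lower at an unadjusted p under 0.05, against 2.58% of all genes, and the median was -0.05. Without taurine array 2 alone 3 of 32 were lower, against 3.22% of all genes. Of the adipocyte markers 16 of 16 were below 0 as well, and their part in this list was not tested. By array the 2 lists differed. On taurine arrays 1 to 4 the adipocyte median relative to the low protein mean was -0.69, -0.55, -0.56 and -0.82. That of the fatty acid list was -0.24, -0.32, -0.09 and -0.05. Of 21 genes of cholesterol and fatty acid synthesis, 4 were lower and 0 higher (median -0.13), against 6.3% and 4.46% of all genes. These 4, Fasn, Acaca at -0.13, Acly at -0.31 and the malic enzyme gene Me1 at -0.21 (SE 0.07), serve fatty acid synthesis, and the sterol pathway genes had an unadjusted p above 0.05.

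Immediate early genes, which are transcribed within minutes of a stimulus such as stretch, injury, growth factors or stress, lay higher. Their list was written with earlier results of these data known, so its counts are a description. Of 28 measured, 18 were higher and 0 lower at an unadjusted p under 0.05, against 4.46% and 6.3% of all genes, 9 were higher without overlap, and 27 had a difference above 0 (28 after median centring). The median difference was 0.33. Many of these genes carry in their promoters a CArG box, the site of serum response factor, or a cAMP response element (TGACGTCA). Of the 28, 19 had a promoter window from 250 bases before to 50 bases after the start in the RefSeq table (build GRCr8). A CArG box was found on either strand in 5 of the 19 windows (26.3%), against 451 of 27457 windows of all genes (1.64%), and the cAMP response element in 4 (21.1%), against 525 (1.91%). A match is a description of the letters and not a measured site. Of the genes with a motif, Egr2, Ier2, Srf and Maff were not among the 18 higher ones. The windows of Junb, Nr4a1, Ccn1 and Ccn2, which were among them, held neither motif. Fos, Jun and Atf3 had no window. Whether the motifs go with the differences was not tested. The windows of Zfp36 and Dusp1 are shown because each holds 1 of the motifs, in capitals, and both genes are among the early genes with the largest differences.
Zfp36, chr1:92799059-92799358, minus strand, with a CArG box from base -32: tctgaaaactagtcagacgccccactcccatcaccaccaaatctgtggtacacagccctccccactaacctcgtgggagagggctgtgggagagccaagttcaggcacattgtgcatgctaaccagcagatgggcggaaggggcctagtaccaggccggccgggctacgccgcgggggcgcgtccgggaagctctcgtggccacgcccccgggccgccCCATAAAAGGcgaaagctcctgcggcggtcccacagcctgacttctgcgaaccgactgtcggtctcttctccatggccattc
Dusp1, chr10:17184603-17184902, plus strand, with the cAMP response element from base -124: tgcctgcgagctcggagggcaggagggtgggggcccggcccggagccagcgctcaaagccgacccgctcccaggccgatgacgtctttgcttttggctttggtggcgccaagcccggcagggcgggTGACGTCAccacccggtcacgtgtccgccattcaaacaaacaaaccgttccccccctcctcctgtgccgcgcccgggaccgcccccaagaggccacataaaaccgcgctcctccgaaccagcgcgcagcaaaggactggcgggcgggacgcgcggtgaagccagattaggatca

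Fos, a subunit of the transcription factor AP-1, was at 8.67, 9.36, 8.47 and 8.01 in low protein plus taurine, against 7.55, 7.26, 7.51 and 7.31 in low protein. All taurine arrays were above all low protein arrays, with array 2 highest and array 4 lowest (difference 1.22, SE 0.29, limma adjusted p = 0.347). Of its partners, Junb was at 8.42, 8.72, 8.09 and 7.78 in low protein plus taurine, against 7.76, 7.42, 7.67 and 7.56 in low protein, again without overlap (difference 0.65, SE 0.18, limma adjusted p = 0.353). Jun differed by 0.61 and Jund by 0.36. The stress-responsive factor gene Atf3 was at 8.78, 10.24, 7.63 and 8.08 in low protein plus taurine, against 7.59, 7.60, 7.29 and 7.31 in low protein. Array 2 was far above the rest and array 3 barely above the low protein arrays (difference 1.24, SE 0.42, limma adjusted p = 0.397). Egr1, for a zinc finger factor, was at 10.50, 10.74, 10.39 and 10.49 in low protein plus taurine, against 10.06, 9.34, 9.46 and 9.25 in low protein. In this gene all 4 taurine arrays were close together (difference 1.00, SE 0.35, limma adjusted p = 0.398). The orphan nuclear receptor genes Nr4a1 and Nr4a3 differed by 0.75 (SE 0.29) and 0.56 (SE 0.21), and both were highest on taurine array 2. Nr4a2 differed by -0.01 and was the 1 early gene below 0 in the deposited values.

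Dusp1, for a phosphatase that switches off MAP kinases, was at 10.03, 10.43, 9.15 and 9.25 in low protein plus taurine, against 9.04, 8.59, 8.69 and 8.46 in low protein. Arrays 1 and 2 stood about 1 unit above arrays 3 and 4, which in turn lay just above the low protein arrays (difference 1.02, SE 0.31, limma adjusted p = 0.366). Zfp36, for an RNA-binding protein that shortens the life of messages, was at 8.43, 8.88, 7.69 and 7.79 in low protein plus taurine, against 7.72, 7.24, 7.54 and 7.17 in low protein (difference 0.78). Its groups overlapped, since array 3 was below low protein array 1. The secreted matricellular genes Ccn1 and Ccn2 had differences of 1.14 and 0.73. Ccn2, for connective tissue growth factor, was at 8.87, 9.17, 8.37 and 8.36 in low protein plus taurine, against 8.03, 7.88, 7.90 and 8.04 in low protein, with no overlap (SE 0.16, limma adjusted p = 0.347). Klf4 at 0.30, Klf6 at 0.39, Ier3 at 0.55, Ier5 at 0.26, Egr3 at 0.21 and Myc at 0.24 were the further members at an unadjusted p under 0.05.

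The early genes were not even across the taurine arrays. The median of the 28 genes relative to the low protein mean was 0.43 and 0.58 on taurine arrays 1 and 2, and 0.16 on both arrays 3 and 4, against 0.07, -0.06, 0.00 and -0.06 on low protein arrays 1 to 4. On the control arrays it was 0.23, 0.19, -0.08 and -0.12. Fos was likewise at 8.28, 8.15, 7.10 and 7.19 on control arrays 1 to 4 and Egr1 at 10.55, 10.52, 8.96 and 8.92, so a split between arrays 1 and 2 and arrays 3 and 4 was present in the control group too. Without taurine arrays 1 and 2, 2 of 28 early genes were higher at an unadjusted p under 0.05, against 2.65% of all genes under that choice, while 25 were above 0 and the median was 0.15. Without taurine array 2 alone 11 of 28 were higher, against 2.57% of all genes, and the median was 0.24. No time of dissection, handling record or array batch is given in the sources used here, and the part of such differences in the early genes was not tested.

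**Figure D3:**
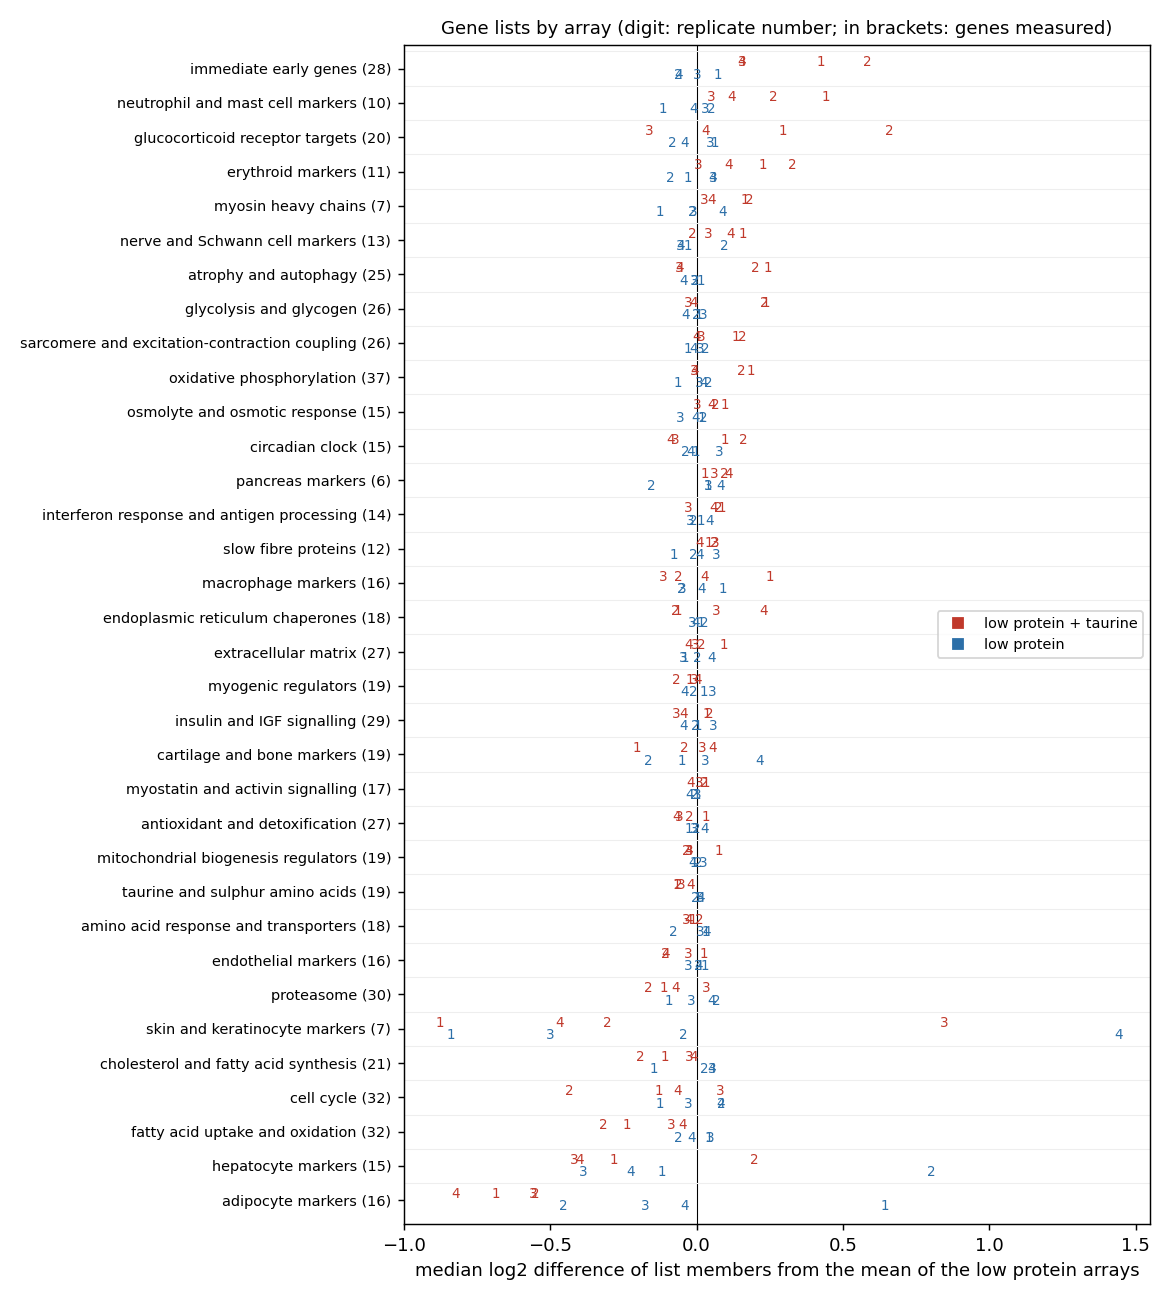
For each list of genes except the muscle defining markers (rows, number measured in brackets), digits mark the median log2 difference of its members from the mean of the low protein arrays (x axis) on taurine arrays 1 to 4, upper line, and low protein arrays 1 to 4, lower line. Taurine arrays 1 and 2 stand to the right of arrays 3 and 4 for immediate early, glucocorticoid target, atrophy, glycolysis and oxidative phosphorylation genes and to the left for fatty acid oxidation, while all 4 are on the left for adipocyte markers.

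The taurine arrays split into the pair 1 and 2 and the pair 3 and 4. On the first principal component of the 8 arrays, which held 33.5% of the variance, taurine arrays 1 and 2 had scores of 14.9 and 21.3 and arrays 3 and 4 of -6.82 and 0.0994, against -1.48, -9.74, -5.83 and -12.5 for low protein arrays 1 to 4. A split was not particular to the taurine group. On the second component (19.7% of the variance) low protein arrays 1 and 3 were at -16.2 and -8.51. Low protein arrays 2 and 4 were at 6.92 and 9.43, and taurine arrays 1 to 4 at 1.82, 6.10, 6.61 and -6.15. The numbers of probe sets over 0.5 above the low protein mean were 257 and 313 on taurine arrays 1 and 2, and 62 and 56 on arrays 3 and 4. Below it by as much there were 215, 263, 80 and 105. Each low protein array, set against the mean of the other 3, had between 20 and 138 probe sets above and between 69 and 103 below. The median SD over probe sets was 0.0975 among the taurine arrays, 0.0922 among the low protein arrays and 0.102 among the controls. These medians do not show how many probe sets carry the split of the taurine arrays.

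Both taurine arrays 1 and 2 lay above all 6 other arrays of these groups for 1280 of 11212 genes (11.4%) and below all of them for 1472 (13.1%). This count is a description, since the pair was singled out with the values known. Among 26 genes of the sarcomere and of excitation-contraction coupling, 21 were above (80.8%), as were 18 of 26 genes of glycolysis and glycogen (69.2%), 24 of 37 of oxidative phosphorylation (64.9%), 15 of 25 of atrophy and autophagy (60%) and 13 of 20 glucocorticoid receptor targets (65%). Below were 19 of 32 fatty acid oxidation genes (59.4%), 9 of 18 endoplasmic reticulum chaperones (50%), 13 of 32 cell cycle genes (40.6%) and 12 of 30 proteasome genes (40%). Hk2, for the hexokinase that insulin and contraction induce in muscle, was at 8.73, 8.80, 7.58 and 7.63 in low protein plus taurine, against 7.60, 7.70, 7.73 and 7.51 in low protein. Arrays 3 and 4 were at the low protein level and arrays 1 and 2 about 1 unit above it (difference 0.55, SE 0.27, limma adjusted p = 0.482). Of marker lists for other cell types, the neutrophil and mast cell median was 0.44 and 0.26 on taurine arrays 1 and 2 and 0.05 and 0.12 on arrays 3 and 4. The erythroid median was 0.23 and 0.33 on taurine arrays 1 and 2 and 0.0056 and 0.11 on arrays 3 and 4. Above all other arrays on both arrays 1 and 2 were 4 of 10 neutrophil and mast cell markers (40%) and 6 of 11 erythroid markers (54.5%). The mean level of the 10 muscle defining genes was 11.80 and 11.81 on arrays 1 and 2 and 11.70 and 11.68 on arrays 3 and 4, against 11.64 to 11.78 on the low protein arrays. The part of these marker levels in the split was not tested.

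**Figure D4:**
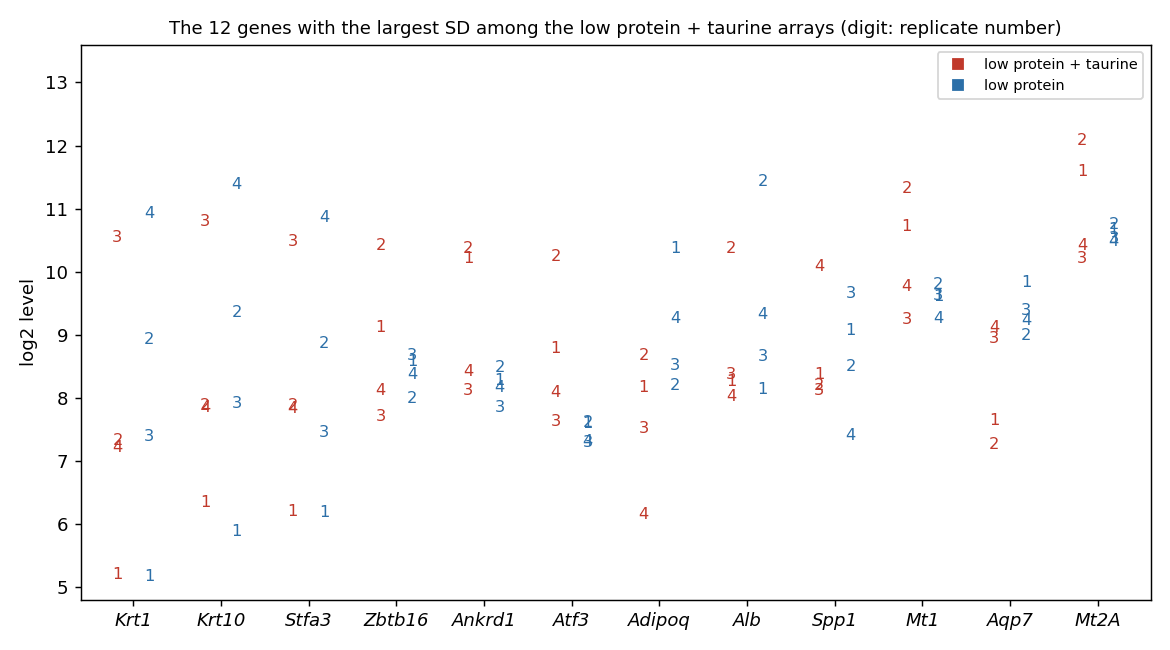
The log2 level (y axis) of the 12 genes with the largest SD among the taurine arrays, with digits for the replicate number in low protein plus taurine (left of each pair) and low protein (right). Array 3 of the taurine group and array 4 of the low protein group are highest for Krt1, Krt10 and Stfa3, and taurine arrays 1 and 2 are highest for Ankrd1, Atf3, Zbtb16, Mt1 and Mt2A.

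The genes that differed most among the 4 taurine arrays fell into several kinds. Skin genes were the most uneven: the keratin gene Krt1 was at 5.20, 7.33, 10.54 and 7.21 in low protein plus taurine, against 5.16, 8.93, 7.39 and 10.93 in low protein. Taurine array 3 and low protein array 4 were high, and array 1 was lowest in both groups. Krt10 and the stefin gene Stfa3 had the same order, and the mean level of the 7 skin markers was highest on those arrays, at 8.40 on taurine array 3 and 8.73 on low protein array 4. The liver gene Alb (albumin) was at 8.26, 10.38, 8.37 and 8.02 in low protein plus taurine, against 8.13, 11.43, 8.66 and 9.31 in low protein, with array 2 highest in both groups. Across the 15 hepatocyte markers the mean level was 7.37 on taurine array 2 and 8.04 on low protein array 2, and between 6.78 and 6.97 on the other 6 arrays. Neither list had a member at an unadjusted p under 0.05 in the contrast, while with only the 8 arrays compared 1 hepatocyte marker was higher. Genes that respond to glucocorticoid or stress were the second kind. Zbtb16, a zinc finger gene induced by glucocorticoids, was at 9.11, 10.41, 7.70 and 8.12 in low protein plus taurine, against 8.58, 7.99, 8.67 and 8.38 in low protein, and was high on taurine arrays 1 and 2. Ankrd1, a stretch-responsive ankyrin repeat gene of muscle, was at 10.21, 10.37, 8.11 and 8.42 in low protein plus taurine, against 8.28, 8.49, 7.84 and 8.16 in low protein (difference 1.09, SE 0.48, limma adjusted p = 0.451). The metallothionein genes Mt1 and Mt2A, whose products bind metals, were also highest on taurine arrays 1 and 2, at 10.72 and 11.32 for Mt1. The fat genes Adipoq and Aqp7 were lowest on different taurine arrays, Adipoq on array 4, at 6.15, and Aqp7 on array 2, at 7.25. Spp1, for osteopontin, stood at 10.08 on taurine array 4 and between 8.11 and 8.37 on the other taurine arrays.

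Among 20 glucocorticoid receptor targets, 2 were higher (Dusp1 and the factor gene Cebpd at 0.32 (SE 0.15)) and 1 lower (Angptl4) at an unadjusted p under 0.05, against 4.46% and 6.3% of all genes. Their median was 0.30, 0.66, -0.16 and 0.03 on taurine arrays 1 to 4, so array 2 stood above the rest, and without arrays 1 and 2 the median difference was -0.06, against 0.20 with them. In the list of 15 circadian clock genes, 3 were higher and 1 lower, against 4.46% and 6.3% of all genes. The median was 0.07 and 10 were above 0. Without taurine arrays 1 and 2, 1 was higher and 2 lower, against 2.65% and 2.58% of all genes. The median was then -0.11 and 4 were above 0. Bmal1, the clock's activator, was at 7.78, 7.49, 7.07 and 7.08 in low protein plus taurine, against 6.94, 7.12, 6.72 and 6.93 in low protein, with overlap (difference 0.43, SE 0.14, limma adjusted p = 0.386). Its relative Npas2 differed by 0.16 (SE 0.07), Bhlhe40, for a repressor, by 0.29, and the output gene Dbp by -0.17 (SE 0.06), the last without overlap. Per1, induced by both light cues and glucocorticoids, was at 7.98, 9.67, 7.79 and 8.50 in low protein plus taurine, against 8.49, 8.19, 8.78 and 8.21 in low protein. Array 2 was highest and the groups overlapped (difference 0.07, SE 0.32). Per2 differed by 0.27 and Nr1d1 by 0.08.

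For growth signals the differences were small. Igf1, for insulin-like growth factor 1, was at 11.0001, 10.97, 10.996 and 10.996 in low protein plus taurine, against 11.12, 11.13, 11.13 and 11.08 in low protein. The groups did not overlap and differed by -0.12 (SE 0.04, limma adjusted p = 0.402). Igf2 differed by 0.07, the receptor genes Igf1r and Insr by 0.15 and 0.21, Irs1, for the docking protein of both receptors, by 0.03, and Slc2a4, for the insulin-responsive glucose transporter, by 0.21, all with overlap. The binding protein gene Igfbp3 differed by -0.17 (SE 0.07) and the S6 kinase gene Rps6kb1 by -0.17 (SE 0.07). Of 29 genes of insulin and IGF signalling, 4 were lower and 0 higher at an unadjusted p under 0.05 (median 0.01), against 6.3% and 4.46% of all genes. Mstn, for the growth inhibitor myostatin, differed by 0.30 (SE 0.14), the related ligand gene Gdf11 by -0.20 (SE 0.08), and Gdf11 was the 1 lower of 17 genes of myostatin and activin signalling.

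In the myogenic programme, Myod1, the factor that commits cells to muscle, was at 8.28, 8.28, 8.15 and 8.22 in low protein plus taurine, against 8.43, 8.54, 8.47 and 8.44 in low protein. All taurine arrays were lower (difference -0.24, SE 0.07, limma adjusted p = 0.353). Myog, which drives differentiation, differed by -0.15 (SE 0.09), the cadherin gene Cdh15 of muscle stem cells by -0.22 (SE 0.10), and Myod1 was the 1 of 19 myogenic regulators at an unadjusted p under 0.05. Of 7 myosin heavy chain genes 2 were higher, both for fast myosins: Myh2 was at 8.32, 8.27, 7.68 and 7.84 in low protein plus taurine, against 7.19, 7.72, 7.53 and 7.95 in low protein, with overlap (difference 0.43, SE 0.16), and Myh1 differed by 0.25 (SE 0.11). Neither was higher at that p without taurine array 1 (3.86% of all genes), without taurine array 2 (2.57%), without both, or without low protein array 1 (4.52%). The fast Myh4 differed by 0.13, the slow Myh7 by 0.14 and the embryonic Myh3 by 0.02, and 0 of 12 slow fibre genes had an unadjusted p under 0.05. Of the 26 sarcomere and coupling genes 3 were higher, against 4.46% of all genes: Trdn (triadin) at 0.23 (SE 0.10), Mybpc2 at 0.37 (SE 0.17) and Actn3, for the fast fibre alpha-actinin, at 0.55 (SE 0.25). Without taurine arrays 1 and 2 the count was 0. The calcium pump gene Atp2a1 and its regulator Sln differed by 0.08 and 0.09.

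For energy genes the counts were small. Of 26 glycolysis and glycogen genes 2 were higher, against 4.46% of all genes: Pdha1, of the pyruvate dehydrogenase complex, at 0.17 (SE 0.06) and its kinase gene Pdk2 at 0.25 (SE 0.11). In this list 25 were above 0, with a median of 0.09. Without arrays 1 and 2, 0 were higher, 1 was lower and 8 were above 0. Of 37 oxidative phosphorylation genes 2 were higher, Ndufv2 at 0.17 (SE 0.07) and Ndufc2 at 0.15 (SE 0.07), both for subunits of complex I, a share near the 4.46% of all genes, and 31 were above 0. Without arrays 1 and 2, 0 were higher, against 2.65% of all genes, and 17 were above 0. Among 19 regulators of mitochondrial biogenesis 1 was higher, the estrogen-related receptor gene Esrrb at 0.27 (SE 0.09), while the coactivator gene Ppargc1a differed by 0.34 (SE 0.23).

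Of 25 atrophy and autophagy genes 20 were above 0 and 2 were higher at an unadjusted p under 0.05, against 4.46% of all genes. Without taurine arrays 1 and 2, 0 were higher, against 2.65% of all genes, 1 was lower and 6 were above 0. The 2 higher genes were Fbxo32, for the muscle ubiquitin ligase atrogin-1, and Klhl38. Fbxo32 was at 9.26, 9.24, 8.58 and 8.67 in low protein plus taurine, against 8.52, 8.63, 8.46 and 8.59 in low protein (difference 0.39, SE 0.17, limma adjusted p = 0.451). Arrays 1 and 2 were high and array 3 lay within the low protein range. Trim63, for the ligase MuRF1, differed by 0.39 (SE 0.23). Of 30 proteasome genes 3 were lower and 0 higher, against 6.3% and 4.46% of all genes. The 3 were Psmd4, Psmb3 and Psmd8, with differences between -0.21 and -0.16. All 32 cell cycle genes had a difference below 0 in the deposited values and 31 after cyclic loess, while the median difference over all genes was -0.0073. At an unadjusted p under 0.05, 3 of the 32 cell cycle genes were lower, against 6.3% of all genes (Cdk2 at -0.30 (SE 0.11), E2f1 at -0.27 (SE 0.10) and Ccnd2 at -0.17 (SE 0.07)). Their median was -0.13, -0.43, 0.08 and -0.06 on taurine arrays 1 to 4, and without arrays 1 and 2 0 were lower and 19 were above 0.

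The next lists are to be read against 4.46% of all genes higher and 6.3% lower. Of 27 extracellular matrix genes 1 was higher, Thbs1, for thrombospondin 1, at 10.44, 10.72, 10.20 and 10.16 in low protein plus taurine, against 9.94, 9.997, 9.74 and 9.87 in low protein, without overlap (difference 0.49, SE 0.13, limma adjusted p = 0.347), and 3 were lower, among them Timp1 at -0.38 (SE 0.16) and Mmp2 at -0.13 (SE 0.06). Of 27 antioxidant and detoxification genes 2 were lower, the stress sensor gene Keap1 at -0.16 (SE 0.05) and Gstp1 at -0.13 (SE 0.05), and 1 higher, the peroxiredoxin gene Prdx3 at 0.16 (SE 0.07). Of 14 interferon response genes 2 were higher, Oasl at 0.33 (SE 0.08) and Rsad2 at 0.43 (SE 0.18). Markers of endothelium were lower for 4 of 16, against 6.3% of all genes. Among these were Sox18 at -0.27 (SE 0.10), Plvap at -0.34 (SE 0.12) and Tie1 at -0.12 (SE 0.05). In this list 6 markers were above 0 and the median was -0.06. Without taurine array 2, 1 of 16 was lower, against 3.22% of all genes. The erythroid markers (11) had 1 higher and 1 lower, as had those of nerve and Schwann cells (13), and of 6 pancreas markers 1 was higher, Cpa1 at 0.27 (SE 0.09). In the fit of only the 8 arrays compared, 5 of the 11 erythroid markers were higher and 0 lower, and 10 were above 0. Likewise 0 of 10 neutrophil and mast cell markers had an unadjusted p under 0.05 with all 12 arrays, while 3 were higher with only the 8, and 10 of 10 were above 0. Without control arrays 3 and 4 these counts were also 5 and 3. The median of the erythroid list relative to the low protein mean was 0.45 and 0.94 on control arrays 3 and 4, and that of the neutrophil and mast cell list 0.51 and 1.47. The lists of endoplasmic reticulum chaperones (18), macrophages (16) and cartilage and bone (19) had 0 members at an unadjusted p under 0.05 in either direction, in both fits. Without taurine arrays 1 and 2, 3 of the 18 chaperones were higher, against 2.65% of all genes, 15 were above 0 and the median was 0.15. The macrophage and the cartilage and bone lists again had 0 members.

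The authors' deposited table bears on this contrast as well. It lists 895 probe sets chosen for low protein against control and calls 88 fully and 195 partially rescued by taurine, 283 in all. This choice used the low protein arrays that also enter the present contrast, so the table is given as a description. In the authors' deposited table the p-value for low protein against low protein plus taurine was under 0.05 for 316 of the 895. Those p-values matched the two-sided normal tail of the equal-variance t statistic to within 5.77e-14, while a t reference with 6 degrees of freedom differed from them by up to 0.0511 and gave 211 under 0.05. For Slc6a6 the authors' deposited table gives 3.387e-07, where the t reference gives 0.00222. With the t reference the authors' stated rules would call 146 probe sets fully and 100 partially rescued. A full call did not require a low p in this contrast: of the 88, 76 had the authors' p under 0.05. Of the 283 rescued probe sets in the authors' deposited table, 210 had an unadjusted limma p under 0.05 here, against 10.8% of all probe sets. The arrays did not overlap for 142, against 6.87% of all probe sets, and 0 passed an adjusted p of 0.05. The rescue calls rest on p-values from these same arrays, so these counts follow in part from the calls and are a description.

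**Figure D5:**
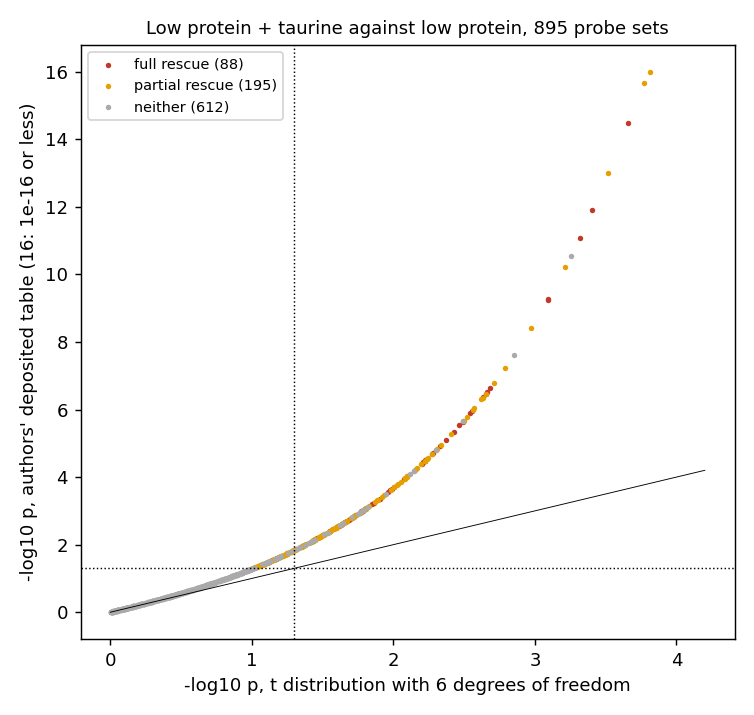
For 895 probe sets of the authors' deposited table, the y axis is -log10 of the authors' p for the 2 low protein groups and the x axis is -log10 of the p from the same t statistic with 6 degrees of freedom, with the thin line at equality and dotted lines at 0.05. All points lie on 1 curve above the line, and 316 lie above the horizontal dotted line while 211 lie right of the vertical one.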

How the data were processed

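Each pool of muscle RNA was measured on 1 Affymetrix array, after Bioanalyzer checks of RNA quality per the labels' protocols. The deposited values are log2 levels per probe set, processed by the authors with RMA in R 3.2.2, per the submitters' processing notes. For the RMA version and the build: not given in the sources used here. Of 29214 probe sets the authors kept 18957 after a detection filter, per the deposited descriptions. The authors' deposited table of 895 probe sets gives p-values, mean intensity per group and ratios of these means, per the file headers.

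All 12 arrays entered 1 limma 3.58.1 fit (R 4.3.3) of 3 group means with eBayes, without a further transformation. Differences are low protein plus taurine minus low protein, tests are two-sided, and p-values were adjusted by Benjamini-Hochberg over 18957 probe sets at a threshold of 0.05. The test was checked on simulated data. Platform annotation gave 1 symbol for 11721 probe sets, several for 141 and none listed for 7095, of which 328 were named from the authors' deposited table, and 11702 matched RefSeq. Among probe sets 163 repeat another on all arrays. A gene was represented by its brightest probe set.

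Members and lists were chosen with earlier results of these data known. Genes were named as follows: up to 12 per direction with the smallest p and no overlap, since none passed, from each list the 3 members of smallest p, a set of taurine, growth, clock and muscle genes, and the 12 with the largest SD among taurine arrays. Lists with 0 members at an unadjusted p under 0.05 are given by counts, and Ado and Myh8 had no named probe set. Further list members, such as Acta1, Zfp36, Ccn1 and Plin1, were chosen after their values were seen. Alternatives are given in the closing section. The replicate numbers stand for different dams. Deviations from the group means of same-numbered arrays correlated between -0.205 and 0.2, above 0.1 in 3 of 12 pairs, so the numbers were not used to pair arrays. The number of arrays limits the precision.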

Additional observations from a re-analysis of the deposited data

Results flagged for a closer look

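In 330 sets of 4 arrays (named genes and list medians, each group apart), 15 had 1 array far from the other 3 by Dixon's criterion. Chance gives about 1 in 20. In the low protein plus taurine group, array 1 was low for Ptprn at 6.57 (others from 6.60 to 6.61), for Dbp at 9.14 (9.27) and for the pancreas gene Cela2a at 6.52 (6.77 to 6.81), and high for the list median of mitochondrial biogenesis regulators at 0.0777 (-0.0356 to -0.0235). Array 2 was low for Igf1 at 10.97 (10.996 to 11.0001) and Rps6kb1 at 8.99 (9.27 to 9.29) and high for Alb at 10.38 (8.02 to 8.37). Array 4 was low for Uqcrb, a subunit gene of complex III, at 11.90 (12.11 to 12.15) and high for Spp1 at 10.08 (8.11 to 8.37). In the low protein group, array 1 was high for the cyclin gene Ccnd2 at 10.51 (10.31 to 10.33) and low for the list median of cholesterol and fatty acid synthesis at -0.145 (0.0267 to 0.052). Low protein array 2 was high for Esm1 at 7.13 (6.91 to 6.94), array 3 high for Nr1d1 at 8.23 (8.01 to 8.04), and array 4 low for Igf1 at 11.08 (11.12 to 11.13) and Igf1r at 9.504 (9.87 to 9.91).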

How the results depend on the processing

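Under 26 alternatives, chosen with earlier results of these data known, the number of probe sets past an adjusted p of 0.05 was 0, except with only the 8 arrays of the 2 groups (1, an unnamed probe set at 0.60 with adjusted p = 0.0154) and without control arrays 3 and 4 (2, the same one and another at 0.43). Leaving out 1 array gave 0. A plain t statistic on the 8 arrays gave 0, and with the normal reference of the authors' deposited p-values, an alternative chosen after seeing the data, 1000. At an unadjusted p under 0.05, the higher and lower counts were 322 and 686 among the 9478 probe sets above the median level (3.4% and 7.24%), 616 and 436 without taurine arrays 1 and 2, and 1789 and 1695 with the normal reference, against 1002 and 1045 of all 18957 (5.29% and 5.51%). Among the 11721 probe sets with 1 symbol 505 were higher (4.31%) and 725 lower (6.19%). Leaving out 1 array gave from 601 to 1190 higher and from 573 to 1352 lower, both lowest without taurine array 2, so those counts depend on it. Slc6a6 lay between -0.41 and -0.33 without 1 array and was -0.29 without taurine arrays 1 and 2 (limma adjusted p = 0.892), and its limma adjusted p over these 26 was 0.198 or above. With the normal reference it was -0.38 with adjusted p = 6.84e-05. With the replicate number as a block, 0 probe sets passed, Slc6a6 was at -0.38 (limma adjusted p = 0.284), and 1073 were higher and 1019 lower at an unadjusted p under 0.05. The labels name no source shared by same-numbered arrays.

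Of 130 named genes, 23 had the opposite sign under some alternative. Without taurine arrays 1 and 2 these were Mpst (-0.072), Hk2 (-0.032), Ppargc1a (-0.041), Trim63 (-0.0024), Slc36a1 (0.022), Gadl1 (0.056), Insr (-0.0061), Slc2a4 (-0.12), Myh3 (-0.018), Per1 (-0.27), Per2 (-0.11), Nr1d1 (-0.0088), Atp2a1 (-0.062), Krt1 (0.77), Krt10 (0.69), Stfa3 (0.81), Zbtb16 (-0.49), Mt1 (-0.067) and Mt2A (-0.29). Csad was 0.0026 after cyclic loess, and with array weights Per1 was -0.12 and Stfa3 0.091. Leaving out 1 array gave ranges through 0 for Alb (-1.16 to 0.058), Csad (-0.077 to 0.057), Irs1 (-0.026 to 0.081), Krt1 (-1.52 to 0.41), Krt10 (-1.33 to 0.50), Myh3 (-0.014 to 0.055), Nr1d1 (-0.0084 to 0.13), Per1 (-0.32 to 0.30), Spp1 (-0.43 to 0.37), Stfa3 (-1.04 to 0.60) and Zbtb16 (-0.090 to 0.81). The cause was not tested. Without taurine arrays 1 and 2, 17 of 35 list medians moved by more than the spread among arrays.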

Other observations

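Among probe sets with no gene name, 10 with identical values on all arrays (one of them 10722421) lay lower with taurine, at 8.84, 9.36, 9.35 and 9.08 on low protein plus taurine arrays 1 to 4, against 9.53, 9.92, 9.60 and 9.96 on low protein arrays 1 to 4. These groups did not overlap (difference -0.60, SE 0.14, limma adjusted p = 0.347), and the 10 count as 1 measurement.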
